A study of Danio rerio with 16 samples.

Results

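The 7 genes described here are fgf7, ccn2b, ostn, ctsl.1, mamdc2b, pkhd1l1 and ncam3, which code for secreted signals, a protease, a matrix protein and cell surface proteins. They were chosen as genes outside xenobiotic metabolism with large rises after TCDD in both zebrafish lines of the study, and their symbols were matched to gene identifiers through the authors' deposited tables. They are 7 of the 32520 genes in the count table, and all 7 had enough counts to be among the 20098 genes tested. Because the rises with TCDD chose the genes, those rises are given as a description with no test. The choice favours large estimates, and the intervals given with the rises do not allow for it. The tests concern the comparison of the 2 lines within each exposure, a contrast that the choice did not ask about, although it used the same libraries.

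Whole zebrafish embryos at 48 hours post fertilization (hpf) were compared, each library being made from a pool of 9 embryos that had grown in a dish of their own. Mutant embryos exposed to TCDD came from the wfikkn1 mutant line and had been kept for 1 h at 4 hpf in 1 ng/mL TCDD (n = 4). Mutant embryos exposed to DMSO had the same line and timing with the vehicle, 0.1% DMSO (n = 4). Wild-type embryos exposed to TCDD (n = 3) and wild-type embryos exposed to DMSO (n = 3) were of the Tropical 5D line and had the same doses and timing. The labels give neither the allele nor the zygosity of the wfikkn1 mutant line. Embryos were rinsed after the exposure and then grew in clean medium, per the labels. Of the wild-type groups, replicate 2 was in both cases not analysed here.

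TCDD (2,3,7,8-tetrachlorodibenzo-p-dioxin) is a potent ligand of the aryl hydrocarbon receptor (AHR), a transcription factor that pairs with ARNT and binds DNA near its target genes. The best known targets are the cytochrome P450 genes of the cyp1 family, which oxidize foreign compounds. In zebrafish embryos TCDD is also known for disturbing the heart, the jaw cartilage and the fins, and genes for growth factors, matrix proteins and adhesion proteins are therefore of interest beside the metabolic targets. Fgf7, known in mammals as keratinocyte growth factor, is made by mesenchyme and acts on epithelium through an epithelial form of FGF receptor 2. Ccn2 (connective tissue growth factor) is a secreted matricellular protein of the CCN family and a known target of the YAP and TAZ coactivators. Ostn is osteocrin, a peptide of bone and muscle that in mammals binds the clearance receptor of the natriuretic peptides. Ctsl.1 belongs to the cathepsin L type of cysteine proteases, Mamdc2 proteins carry MAM domains and lie in the extracellular matrix, Pkhd1l1 is a large membrane protein related to fibrocystin that in mice coats the stereocilia of hair cells, and Ncam3 belongs to the neural cell adhesion molecules of the immunoglobulin superfamily.

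The libraries held 20597475 to 26884477 counts each, of which 99.95% fell in the tested genes. Levels are given as CPM (counts scaled to library size), with TMM factors of 0.970 to 1.02, and a floor of 3 counts corresponded to 0.110 to 0.145 CPM, which covers counting error only. The targeted gene wfikkn1 was lower in mutants within each exposure, with 14, 15, 21 and 22 counts in mutant TCDD libraries and 0, 0, 4 and 3 in mutant DMSO libraries, against 214, 454 and 520 in wild-type TCDD libraries and 10, 12 and 19 in wild-type DMSO libraries. The AHR target cyp1a averaged 4968 ± 288 CPM in mutant TCDD and 16.7 ± 2.38 CPM in mutant DMSO libraries (SD, n = 4 each), and 3137 ± 47.0 CPM in wild-type TCDD and 19.6 ± 2.2 CPM in wild-type DMSO libraries (SD, n = 3 each). Markers of 10 tissues of a whole embryo were counted in every library, with summed levels between 36.9 CPM for the hair cell list and 11110 CPM for the fast muscle list. Libraries of the same group differed along a shared axis that held 28.8% of the variance within groups, computed over 15143 genes. Library scores on that axis also moved with the groups, at -26.9, -28.9, -11.1 and -25.5 in mutant TCDD and 25.4, 13.6, -8.48 and 30.4 in mutant DMSO libraries, and at 28.1, 14.8 and 19.2 in wild-type TCDD and -0.987, 10.7 and -40.3 in wild-type DMSO libraries. Adding this score to the fit therefore takes away part of any group difference along the axis, and its values are given beside the named results of TCDD whose call it ended.

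**Figure D1:**
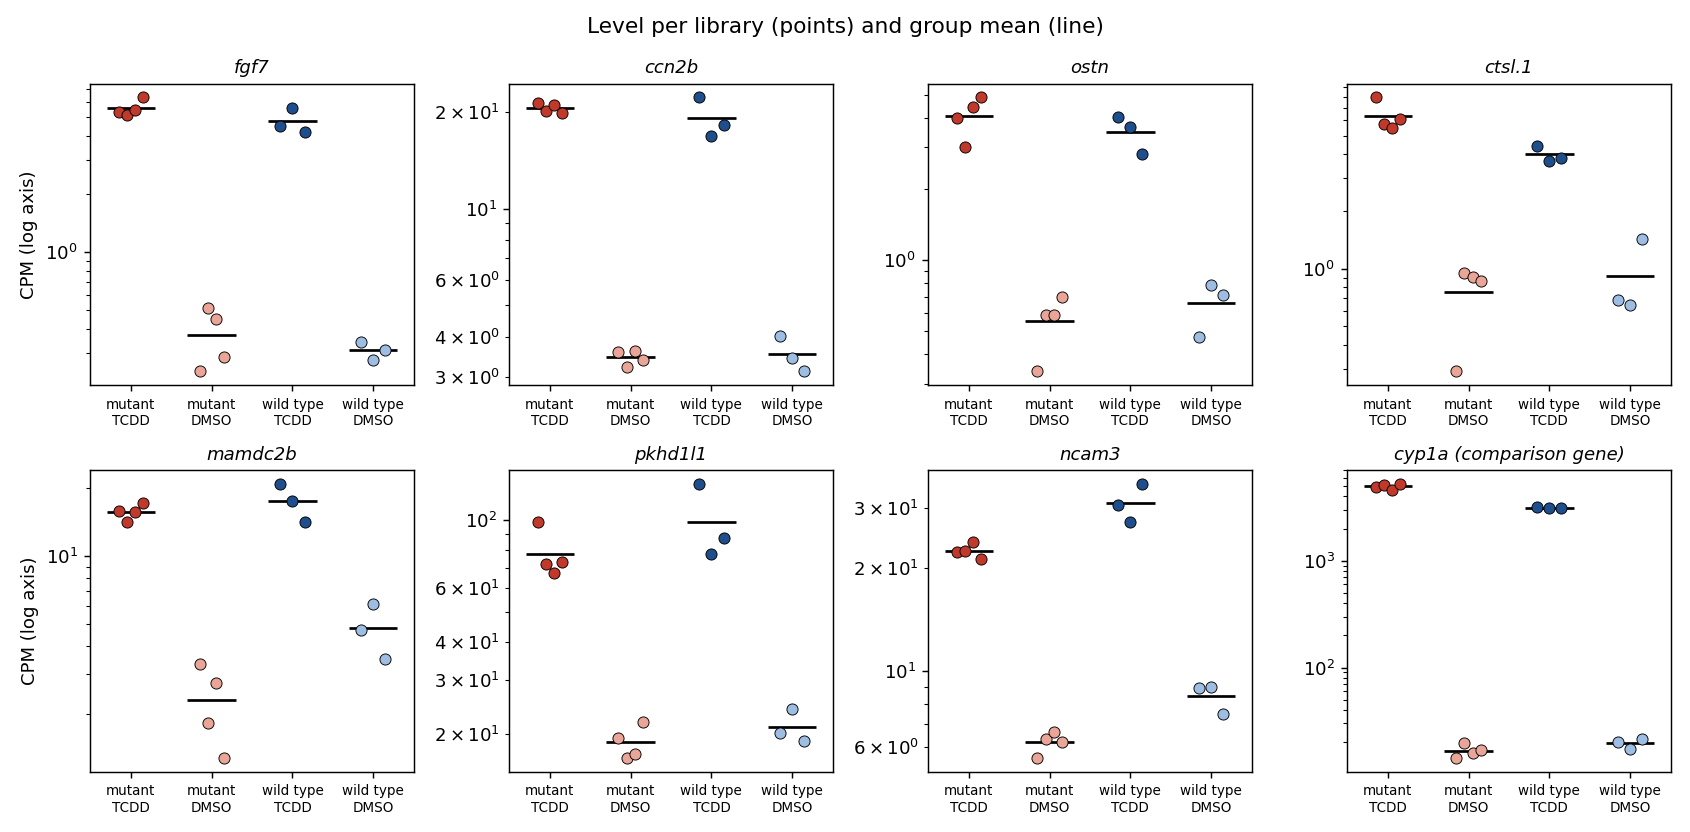
Level of each of the 7 genes and of the comparison gene cyp1a in CPM on a log axis, with 1 point per library and a line at the group mean, for mutant TCDD and mutant DMSO (n = 4 each) and wild-type TCDD and wild-type DMSO (n = 3 each). In each of the 7 genes every TCDD library lies above every DMSO library of either line, which the choice of the genes favoured.

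The 3 genes for secreted signals were low in vehicle and high after TCDD in both lines. Fgf7 (fgf7, ENSDARG00000059387) had 5.32, 5.12, 5.47 and 6.32 CPM in mutant TCDD libraries, against 0.242, 0.513, 0.451 and 0.288 CPM in mutant DMSO libraries. It had 4.51, 5.56 and 4.18 CPM in wild-type TCDD libraries, against 0.343, 0.278 and 0.312 CPM in wild-type DMSO libraries. The lowest TCDD library of either line thus lay far above the highest DMSO library, where 5 to 14 reads were counted per library. The log2 fold change was 3.86 ± 0.23 in mutants (14.5-fold, 95% interval 10.4 to 20.2) and 3.91 ± 0.27 in wild type (15.0-fold, 95% interval 10.1 to 22.4), where ± gives the SE of the edgeR fit. The rise of fgf7 ranked 8 in mutants and 15 in wild type among the 20098 tested genes. RNA of whole embryos was measured, so that more cells making a transcript and more transcript per cell cannot be told apart here, nor can fewer cells and less RNA per cell.

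Ccn2b (ccn2b, ENSDARG00000104292) had 21.3, 20.1, 21.0 and 19.7 CPM in mutant TCDD libraries, against 3.58, 3.22, 3.61 and 3.38 CPM in mutant DMSO libraries. It had 22.2, 16.8 and 18.2 CPM in wild-type TCDD libraries, against 4.02, 3.43 and 3.12 CPM in wild-type DMSO libraries. The 4 mutant TCDD libraries lay within the span of the 3 wild-type ones, and both DMSO groups overlapped as well. This gave a log2 fold change of 2.57 ± 0.12 in mutants (5.96-fold) and 2.43 ± 0.14 in wild type (5.39-fold).

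Osteocrin (ostn, ENSDARG00000054055) had 4.00, 3.0, 4.45 and 4.89 CPM in mutant TCDD libraries, against 0.338, 0.586, 0.586 and 0.700 CPM in mutant DMSO libraries. It had 4.02, 3.65 and 2.80 CPM in wild-type TCDD libraries, against 0.471, 0.788 and 0.713 CPM in wild-type DMSO libraries. All 7 TCDD libraries, with 61 to 126 counts, lay above all 7 DMSO libraries, with 7 to 17 counts. Between these levels the log2 fold change was 2.86 ± 0.26 in mutants (7.26-fold) and 2.41 ± 0.29 in wild type (5.30-fold).

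In the lists of related signalling genes no tested gene moved as far with TCDD as these 3, which were picked for the size of their rise. Among all tested genes, 36.1% were called with TCDD in mutants (17.5% higher and 18.6% lower) and 14.6% in wild type (8.84% higher and 5.75% lower), a gene being called where the quasi-likelihood test of edgeR gave it a p under 0.05 after Benjamini-Hochberg adjustment across the 20098 genes. Of 8 tested genes for other FGF ligands, 2 were called higher and 1 lower in mutants and edgeR called none in wild type, with median log2 fold changes of 0.28 and 0.20 against 0.0045 and 0.030 over all genes. In mutants fgf3, a ligand active in the hindbrain and ear, rose by 0.45 ± 0.14 (edgeR adjusted p = 0.0205), and fgf6b fell by 1.1 ± 0.39 (edgeR adjusted p = 0.0357). In wild type the log2 fold change was 0.15 ± 0.16 for fgf3 and 1.1 ± 0.45 for fgf6b. DESeq2 also called none of the 8 in wild type, and 1 of them had an unadjusted edgeR p under 0.05. The call of fgf3 ended when any of 3 libraries was left out, and that of fgf6b when any of 5 was left out (edgeR adjusted p up to 0.0702 and 0.107). Neither was called with the library score as a term (0.45 for fgf3 and -0.51 for fgf6b, edgeR adjusted p = 0.165 and 0.593). Epidermis, on which Fgf7 is known to act, had marker sums between 2980 and 3516 CPM in mutant TCDD and between 2313 and 2556 CPM in mutant DMSO libraries, with 1 of 6 tested markers called higher. The sums lay between 3165 and 6430 CPM in wild-type TCDD and between 3787 and 8536 CPM in wild-type DMSO libraries, with 1 of 6 called lower, while krt5 and epcam were near 0 in all groups. Whether reads of krt5 and epcam were lost in counting was not tested. The part of epidermis in the fgf7 levels was not tested.

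Of 9 genes for FGF receptors and their adaptors, 1 was called higher and 5 lower in mutants, and 1 higher and 1 lower in wild type (median log2 fold changes -0.31 and 0.087). Fgfr2, whose epithelial form is the receptor of Fgf7 in mammals, averaged 607 ± 40.6 CPM in mutant TCDD and 918 ± 23.2 CPM in mutant DMSO libraries (SD, n = 4 each). It averaged 561 ± 47.7 CPM in wild-type TCDD and 758 ± 124 CPM in wild-type DMSO libraries (SD, n = 3 each). It fell by 0.60 ± 0.089 in mutants (edgeR adjusted p = 0.000124) and by 0.43 ± 0.10 in wild type (edgeR adjusted p = 0.0113), opposite in direction to fgf7. Reads were counted per gene, so the epithelial form cannot be told from other forms of fgfr2. The wild-type call ended without wild-type TCDD replicate 3 (-0.37, edgeR adjusted p = 0.0508) and with only the 2 groups in the fit (-0.47, edgeR adjusted p = 0.0641), and with the score as a term the mutant value was -0.40 (edgeR adjusted p = 0.0235). Frs3, an adaptor of FGF receptors, fell by 2.05 ± 0.28 in mutants (edgeR adjusted p = 6.41e-05) and rose in wild type by 0.95 ± 0.31 (edgeR adjusted p = 0.0484), a call that ended when any of 12 of the 14 libraries was left out. It also ended with RLE scaling, a CPM filter, DESeq2, only the 2 groups in the fit, a term for sample number and the score (0.20, edgeR adjusted p = 0.520), and with the score the mutant value was -0.94 (edgeR adjusted p = 0.00373).

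Of 10 genes known as feedback targets of FGF signalling, 5 were called higher and 3 lower in mutants, and 3 higher and 2 lower in wild type (median log2 fold changes 0.39 and 0.26). Il17rd, an inhibitor of FGF signalling, rose by 0.68 ± 0.086 in mutants (edgeR adjusted p = 3.72e-05) and by 0.46 ± 0.099 in wild type (edgeR adjusted p = 0.00717), the wild-type call ending with only the 2 groups in the fit (0.42, edgeR adjusted p = 0.0791). The Sprouty gene spry1 averaged 30.8 ± 2.82 CPM in mutant TCDD and 14.8 ± 2.67 CPM in mutant DMSO libraries (SD, n = 4 each). It rose by 1.05 ± 0.14 in mutants (edgeR adjusted p = 4.40e-05) and by 0.48 ± 0.16 in wild type (edgeR adjusted p = 0.0493), where leaving out any of 12 of the 14 libraries ended the call. So did RLE scaling, either other filter, only the 2 groups in the fit, a term for sample number and the score (0.44 to 0.58 over these fits, edgeR adjusted p = 0.0523 to 0.139). Spred2b, another inhibitor, moved in opposite directions, by -1.31 ± 0.23 in mutants (edgeR adjusted p = 0.000449) and 1.25 ± 0.27 in wild type (edgeR adjusted p = 0.00715). With the library score as a term spred2b had -0.32 in mutants (edgeR adjusted p = 0.131) and 0.54 in wild type (edgeR adjusted p = 0.0236). In that fit the difference between the lines was -1.15 for frs3 and -0.86 for spred2b and was not called (edgeR adjusted p = 0.296 and 0.301).

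Of 5 other tested CCN genes, edgeR called none higher in either line and 1 lower in each (median log2 fold changes -0.16 in mutants and -0.21 in wild type). DESeq2 called 1 higher in mutants and none in wild type, and 2 in mutants and none in wild type had an unadjusted edgeR p under 0.05 in that direction. Its paralog ccn2a averaged 3.07 ± 0.726 CPM in mutant TCDD and 1.57 ± 0.231 CPM in mutant DMSO libraries (SD, n = 4 each). Ccn2a averaged 4.85 ± 1.93 CPM in wild-type TCDD and 4.37 ± 3.32 CPM in wild-type DMSO libraries (SD, n = 3 each). Its log2 fold change was 0.98 ± 0.40 in mutants and 0.14 ± 0.42 in wild type, and neither was called (edgeR adjusted p = 0.0681 and 0.871). The called genes were ccn6 in mutants, which fell by 0.62 ± 0.17 (edgeR adjusted p = 0.00877), and ccn1l2 in wild type, which fell by 0.41 ± 0.11 (edgeR adjusted p = 0.0216). The ccn1l2 call ended without wild-type TCDD replicate 1 or 3 (-0.38 in both, edgeR adjusted p = 0.0630 and 0.0776), with only the 2 groups in the fit (-0.45, edgeR adjusted p = 0.0661) and with the library score as a term (-0.41, edgeR adjusted p = 0.0821). Markers of the vascular endothelium summed to between 231 and 247 CPM in mutant TCDD and between 269 and 275 CPM in mutant DMSO libraries, with 2 of 4 called higher and 1 lower. They summed to between 266 and 297 CPM in wild-type TCDD and between 239 and 269 CPM in wild-type DMSO libraries, with 1 of 4 called higher, and their part in the ccn2b levels was not tested.

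Of 13 genes for YAP, TAZ, TEAD factors, their regulators and other targets, 1 was called higher and 6 lower in mutants, and 4 higher and 3 lower in wild type (median log2 fold changes -0.34 and 0.0084). The target and inhibitor amotl2a fell by 0.33 ± 0.072 in mutants (edgeR adjusted p = 0.00214) and by 0.34 ± 0.083 in wild type (edgeR adjusted p = 0.0129). The kinase gene stk3, which acts upstream of YAP, fell by 0.78 ± 0.11 in mutants (edgeR adjusted p = 0.000113) and by 0.53 ± 0.13 in wild type (edgeR adjusted p = 0.0141). The wild-type call of amotl2a ended without wild-type TCDD replicate 3 (-0.27, edgeR adjusted p = 0.0592), with only the 2 groups in the fit (-0.38, edgeR adjusted p = 0.0667) and with the library score as a term (-0.28, edgeR adjusted p = 0.110). The score also ended the wild-type call of stk3 (-0.37, edgeR adjusted p = 0.140). In wild type vgll4a, a TEAD cofactor, had a log2 fold change of 0.0084 ± 0.17, against a fall of 0.74 ± 0.15 in mutants (edgeR adjusted p = 0.00106) that was not called with the score (-0.41, edgeR adjusted p = 0.144).

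The genes of natriuretic peptides, their receptors and their processing held 2 called higher and 4 lower of 9 in mutants, and 2 called lower in wild type (median log2 fold changes -0.011 and 0.15). The clearance receptor npr3, the receptor of osteocrin in mammals, was not analysed here. The atrial peptide gene nppa fell by 0.37 ± 0.12 in mutants (edgeR adjusted p = 0.0236) and by 0.44 ± 0.14 in wild type (edgeR adjusted p = 0.0392). These calls ended when any of 3 libraries and any of 5 libraries was left out (edgeR adjusted p up to 0.0765 and 0.166). Both also ended with the library score as a term (-0.50 and -0.33, edgeR adjusted p = 0.0526 and 0.241), and the wild-type one with only the 2 groups in the fit (-0.48, edgeR adjusted p = 0.0939). Furina, a protease that processes propeptides, fell by 0.33 ± 0.074 in mutants (edgeR adjusted p = 0.00245) and by 0.50 ± 0.086 in wild type (edgeR adjusted p = 0.00239). The receptor gene npr1a and the kinase gene prkg1a fell in mutants by 0.86 ± 0.15 and 0.94 ± 0.18 (edgeR adjusted p = 0.000374 and 0.000795), against log2 fold changes of 0.20 ± 0.17 and 0.23 ± 0.21 in wild type, which were not called. With the score as a term neither mutant fall was called, at -0.44 for npr1a and -0.24 for prkg1a (edgeR adjusted p = 0.0919 and 0.230). Muscle is a known source of osteocrin, and the summed level of 6 fast muscle markers ran from 9544 to 10680 CPM in mutant TCDD and from 6218 to 6945 CPM in mutant DMSO libraries. It ran from 10160 to 11110 CPM in wild-type TCDD and from 7570 to 9516 CPM in wild-type DMSO libraries. Of these markers, 4 of 6 were called higher in mutants and 3 of 6 in wild type, and their part in the ostn levels was not tested. Neither edgeR nor DESeq2 called any lower, and 1 was lower in mutants at an unadjusted edgeR p under 0.05. The marker mylpfa was low throughout, averaging 0.389 and 0.853 CPM in mutant TCDD and DMSO and 0.287 and 0.103 CPM in wild-type TCDD and DMSO libraries. Whether its low counts reflect little RNA or reads lost in counting was not tested. Heart muscle markers summed to between 72.0 and 86.4 CPM in mutant TCDD and between 57.2 and 60.6 CPM in mutant DMSO libraries. They summed to between 108 and 117 CPM in wild-type TCDD and between 65.7 and 83.4 CPM in wild-type DMSO libraries. Of these 5 markers, 4 were called higher in mutants and 2 in wild type, and nppb among them was also counted in the natriuretic list.

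**Figure D2:**
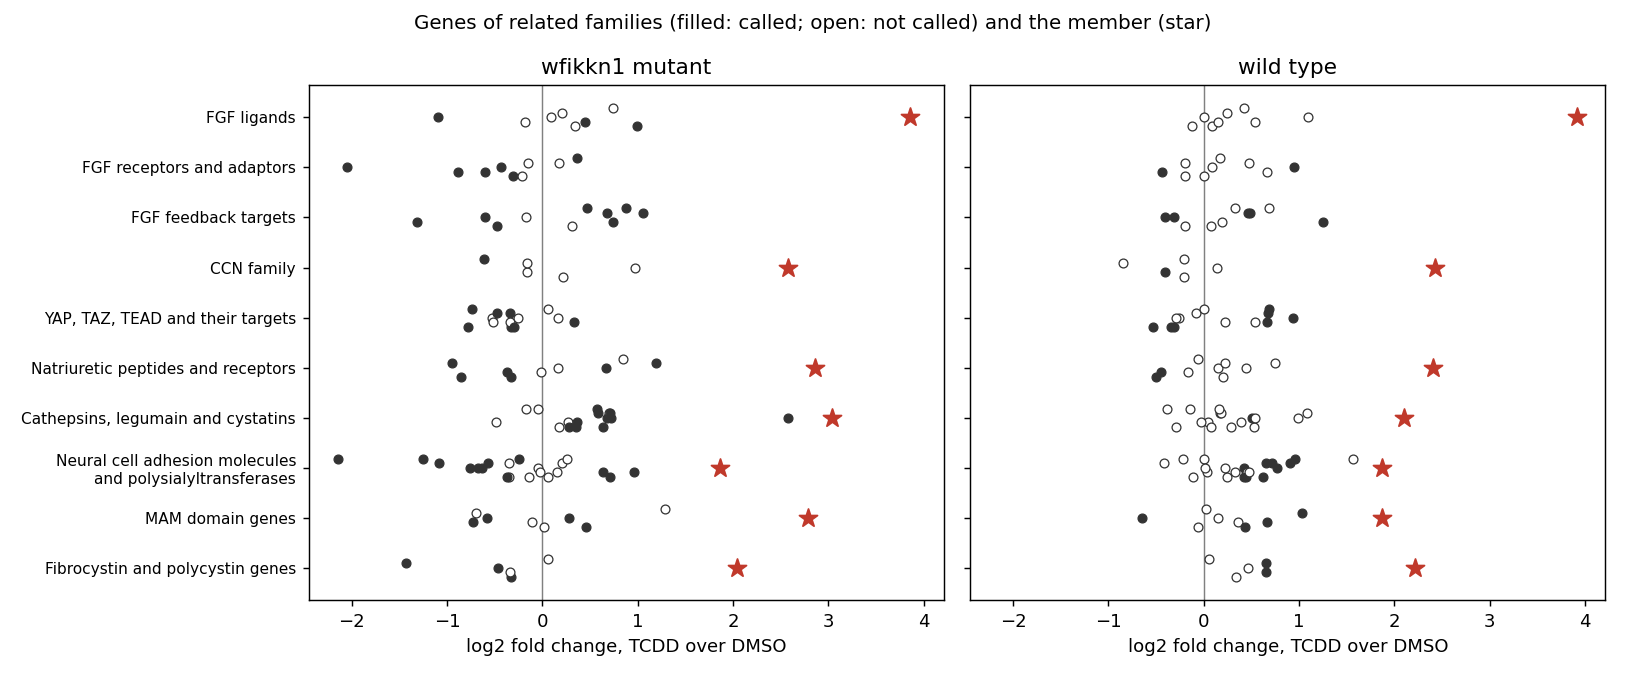
Log2 fold change of TCDD over DMSO (x axis) for the genes of each related list (circles, filled where called) and for the gene of the 7 that belongs to it (star), in mutants on the left and wild type on the right. The starred genes were chosen for their rise and lie to the right of all other genes of their lists.

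The protease gene ctsl.1 (ENSDARG00000003902) was also low in vehicle and high after TCDD in both lines. It had 7.93, 5.73, 5.47 and 6.13 CPM in mutant TCDD libraries, against 0.290, 0.953, 0.902 and 0.865 CPM in mutant DMSO libraries. It had 4.42, 3.69 and 3.82 CPM in wild-type TCDD libraries, against 0.685, 0.649 and 1.43 CPM in wild-type DMSO libraries. Mutant DMSO replicate 1, with 6 counts, and wild-type DMSO replicate 4, with 32 counts, stood apart from the other vehicle libraries in opposite directions. The rise, as a log2 fold change, was 3.04 ± 0.29 in mutants (8.22-fold) and 2.11 ± 0.33 in wild type (4.30-fold). With the library score as a term it was 2.40 in mutants and 2.70 in wild type, so that the order of the 2 lines turned.

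Of 16 other tested genes for cathepsins, legumain and their cystatin inhibitors, 10 were called higher in mutants and 1 in wild type (median log2 fold changes 0.47 and 0.17). In the lower direction edgeR called none in either line, DESeq2 called none in mutants and 1 in wild type, and none in mutants and 2 in wild type had an unadjusted edgeR p under 0.05. Between the lines in DMSO, edgeR called 6 of the 16 lower and 1 higher in mutants, beside 8.60% and 8.21% of all tested genes. Under TCDD it called 2 higher and none lower, beside 10.7% and 16.9%. The median log2 fold changes of mutant over wild type were -0.32 in DMSO and -0.014 under TCDD. Ctss2.1, a cathepsin S gene, averaged 2.94 ± 0.725 CPM in mutant TCDD and 0.492 ± 0.178 CPM in mutant DMSO libraries (SD, n = 4 each), and it rose by 2.57 ± 0.36 (edgeR adjusted p = 7.48e-05). In wild type ctss2.1 averaged 3.66 ± 0.242 CPM in TCDD and 1.855 ± 1.105 CPM in DMSO libraries (SD, n = 3 each). Its log2 fold change there was 0.99 ± 0.36, short of a call (edgeR adjusted p = 0.0732). Ctsk, the cathepsin of bone resorption, rose by 0.71 ± 0.11 in mutants (edgeR adjusted p = 0.000138), against 0.17 ± 0.12 in wild type. The cystatin gene cst14b.1 rose by 0.68 ± 0.13 in mutants (edgeR adjusted p = 0.000914) and by 0.51 ± 0.15 in wild type (edgeR adjusted p = 0.0352), where leaving out any of 6 libraries ended the call. The wild-type call also ended without a filter (0.47, edgeR adjusted p = 0.0767) and with only the 2 groups in the fit (0.47, edgeR adjusted p = 0.180). A replicate block ended it too (0.50, edgeR adjusted p = 0.0508). With the library score as a term neither line was called (0.57 in mutants and 0.59 in wild type, edgeR adjusted p = 0.0628 and 0.0735). The cathepsin L gene ctsla averaged 469 ± 101 CPM in mutant TCDD and 485 ± 63.3 CPM in mutant DMSO libraries (SD, n = 4 each), with log2 fold changes of -0.048 ± 0.14 in mutants and -0.15 ± 0.17 in wild type that were not called (edgeR adjusted p = 0.826 and 0.612). Reads that ctsl.1 shares with near copies cannot be assigned from the table.

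Cathepsin genes are active in the hatching gland and in phagocytes, and the markers of both were summed beside ctsl.1. Hatching gland markers summed to between 459 and 582 CPM in mutant TCDD and between 312 and 443 CPM in mutant DMSO libraries, with 3 of 4 tested markers called higher. They summed to between 344 and 456 CPM in wild-type TCDD and between 264 and 369 CPM in wild-type DMSO libraries, with 1 of 4 called higher. The marker he1.3 was near 0 in all groups, and whether its reads were lost in counting was not tested. The marker ctslb was also counted among the cathepsin genes above. Leukocyte markers went the other way, at 94.3 to 98.5 CPM in mutant TCDD and 120 to 144 CPM in mutant DMSO libraries, with 3 of 5 called lower, and at 114 to 143 CPM in wild-type TCDD and 139 to 158 CPM in wild-type DMSO libraries, with 1 of 5 called lower. The part of either tissue in the ctsl.1 levels was not tested.

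The matrix gene mamdc2b (ENSDARG00000073695) had 15.9, 14.2, 15.7 and 17.1 CPM in mutant TCDD libraries, against 3.34, 1.83, 2.75 and 1.28 CPM in mutant DMSO libraries. It had 20.9, 17.6 and 14.2 CPM in wild-type TCDD libraries, against 4.71, 6.17 and 3.52 CPM in wild-type DMSO libraries. The TCDD levels of the lines overlapped, while every mutant DMSO library lay below every wild-type DMSO library. The log2 fold change was 2.79 ± 0.23 in mutants (6.91-fold) and 1.87 ± 0.25 in wild type (3.66-fold).

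The paralog mamdc2a went the opposite way. It averaged 3.52 ± 0.422 CPM in mutant TCDD and 5.25 ± 0.388 CPM in mutant DMSO libraries (SD, n = 4 each), and 3.73 ± 0.0822 CPM in wild-type TCDD and 5.81 ± 0.883 CPM in wild-type DMSO libraries (SD, n = 3 each). It fell by 0.58 ± 0.14 in mutants (edgeR adjusted p = 0.00490) and by 0.64 ± 0.17 in wild type (edgeR adjusted p = 0.0169), a wild-type call that ended without wild-type TCDD replicate 3 (-0.63, edgeR adjusted p = 0.0525), with only the 2 groups in the fit (-0.68, edgeR adjusted p = 0.0766) and with the library score as a term (-0.48, edgeR adjusted p = 0.166). Of 8 tested genes with MAM domains, 2 were called higher and 2 lower in mutants, and 3 higher and 1 lower in wild type (median log2 fold changes -0.047 and 0.26). The neuropilin gene nrp1b, a receptor for semaphorins and VEGF, fell by 0.72 ± 0.12 in mutants (edgeR adjusted p = 0.000295) and rose in wild type by 0.66 ± 0.14 (edgeR adjusted p = 0.00666). Its paralog nrp1a rose in wild type by 0.43 ± 0.087 (edgeR adjusted p = 0.00512), against 0.020 ± 0.075 in mutants. With the score as a term nrp1b was called in neither line (-0.33 in mutants and 0.36 in wild type, edgeR adjusted p = 0.0974 and 0.0864). The wild-type call of nrp1a ended with it too (0.28, edgeR adjusted p = 0.0669), and with only the 2 groups in the fit (0.40, edgeR adjusted p = 0.0703).

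Markers of fin fold and cartilage, which are rich in matrix, were summed beside mamdc2b and ccn2b. Fin fold markers summed to between 1006 and 1074 CPM in mutant TCDD and between 887 and 950 CPM in mutant DMSO libraries, and to between 882 and 937 CPM in wild-type TCDD and between 792 and 867 CPM in wild-type DMSO libraries. Of 6 fin fold markers, 2 were called higher and 1 lower in mutants, and 2 higher in wild type. Cartilage markers summed to between 452 and 488 CPM in mutant TCDD and between 543 and 574 CPM in mutant DMSO libraries, and to between 513 and 542 CPM in wild-type TCDD and between 608 and 744 CPM in wild-type DMSO libraries, with 2 of 4 called lower in each line (DESeq2 called 3 in mutants). The part of these tissues in the levels of mamdc2b and ccn2b was not tested.

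The 2 genes for cell surface proteins had the smallest rises of the 7 in mutants. Pkhd1l1 (pkhd1l1, ENSDARG00000091116) had 98.7, 71.8, 67.4 and 72.9 CPM in mutant TCDD libraries, against 19.5, 16.7, 17.3 and 22.0 CPM in mutant DMSO libraries. It had 131, 77.5 and 87.4 CPM in wild-type TCDD libraries, against 20.3, 24.2 and 19.0 CPM in wild-type DMSO libraries. Replicate 1 was the highest TCDD library of both lines, and the ranges of the lines overlapped in both exposures. On the log2 scale the fold change was 2.04 ± 0.16 in mutants (4.12-fold) and 2.22 ± 0.19 in wild type (4.66-fold), and the wild-type value was 1.96 without replicate 1 of wild-type TCDD.

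Ncam3 (ncam3, ENSDARG00000089586) had 22.3, 22.4, 23.9 and 21.2 CPM in mutant TCDD libraries, against 5.56, 6.34, 6.63 and 6.18 CPM in mutant DMSO libraries. It had 30.6, 27.3 and 35.3 CPM in wild-type TCDD libraries, against 8.91, 8.99 and 7.48 CPM in wild-type DMSO libraries. The 4 groups did not overlap at all, with mutants below wild type in each exposure. The log2 fold change was 1.86 ± 0.11 in mutants (3.63-fold) and 1.87 ± 0.13 in wild type (3.67-fold).

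The fibrocystin gene pkhd1 was not analysed here. Of 5 tested polycystin genes, 3 were called lower in mutants and 2 higher in wild type. Their median log2 fold changes were -0.34 in mutants and 0.47 in wild type. Neither edgeR nor DESeq2 called any in the opposite direction, and none had an unadjusted edgeR p under 0.05 in that direction. Pkd2, a calcium-permeable channel of cilia, fell by 1.43 ± 0.19 in mutants (edgeR adjusted p = 4.79e-05). It rose in wild type by 0.66 ± 0.21 (edgeR adjusted p = 0.0442), a call that ended when any of 10 of the 14 libraries was left out. The wild-type call of pkd2 also ended with RLE scaling, a CPM filter and only the 2 groups in the fit. It ended as well with a replicate block (0.68, edgeR adjusted p = 0.0511), a term for sample number and the library score (0.17, edgeR adjusted p = 0.531). With the score the mutant value was -0.77 (edgeR adjusted p = 0.00467). Pkd1b rose in wild type by 0.65 ± 0.17 (edgeR adjusted p = 0.0187), but this call ended without wild-type DMSO replicate 4 or wild-type TCDD replicate 1 (0.47 and 0.43, edgeR adjusted p = 0.0854 and 0.0943), with only the 2 groups in the fit (0.61, edgeR adjusted p = 0.0979) and with the score (0.33, edgeR adjusted p = 0.2625). Pkd1l2a fell by 0.47 ± 0.14 in mutants (edgeR adjusted p = 0.0166), a call that ended without mutant DMSO replicate 4 (-0.37, edgeR adjusted p = 0.0619), and with the score as a term it had -0.0049 (not called, edgeR adjusted p = 0.988). Hair cell markers, summed beside pkhd1l1, lay between 36.9 and 43.9 CPM in mutant TCDD and between 44.3 and 54.0 CPM in mutant DMSO libraries, with 1 of 7 called higher and 3 lower. They lay between 56.5 and 61.5 CPM in wild-type TCDD and between 46.7 and 57.6 CPM in wild-type DMSO libraries, with none of 7 called by edgeR or DESeq2 and 3 higher at an unadjusted edgeR p under 0.05. Their part in the pkhd1l1 levels was not tested.

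Of 21 tested genes for neural cell adhesion molecules and their polysialyltransferases, 3 were called higher and 9 lower in mutants, and 9 higher in wild type (median log2 fold changes -0.24 and 0.43). In wild type neither edgeR nor DESeq2 called any lower, and 2 were lower at an unadjusted edgeR p under 0.05. Ncam1a, of the same family, averaged 137 ± 9.22 CPM in mutant TCDD and 177 ± 13.4 CPM in mutant DMSO libraries (SD, n = 4 each). It averaged 197 ± 14.5 CPM in wild-type TCDD and 145 ± 31.4 CPM in wild-type DMSO libraries (SD, n = 3 each), a fall of 0.37 ± 0.11 in mutants and a rise of 0.44 ± 0.12 in wild type (edgeR adjusted p = 0.0114 and 0.0234). The wild-type call of ncam1a ended without wild-type DMSO replicate 1 or 4 or wild-type TCDD replicate 4 (0.25 to 0.43, edgeR adjusted p = 0.0717 to 0.1204) and with only the 2 groups in the fit (0.405, edgeR adjusted p = 0.137). Ncam1a was called in neither line with the library score as a term (-0.016 in mutants and 0.18 in wild type, edgeR adjusted p = 0.942 and 0.307). Ncam2 rose by 0.96 ± 0.24 in mutants (edgeR adjusted p = 0.00552), which was not called with the score (0.87, edgeR adjusted p = 0.1465), and had a log2 fold change of 0.48 ± 0.28 in wild type (edgeR adjusted p = 0.274). The L1 family gene chl1a fell by 0.63 ± 0.093 in mutants (edgeR adjusted p = 0.000118), against a log2 fold change of 0.23 ± 0.11 in wild type. Its relative l1camb fell by 0.75 ± 0.16 in mutants (edgeR adjusted p = 0.00131) and rose in wild type by 0.76 ± 0.18 (edgeR adjusted p = 0.0104), and with the score as a term it was called in neither line (-0.13 in mutants and 0.31 in wild type, edgeR adjusted p = 0.413 and 0.0715). Chl1b rose in wild type by 0.71 ± 0.11 (edgeR adjusted p = 0.000882), against 0.21 ± 0.090 in mutants. Alcama rose by 0.71 ± 0.11 in mutants (edgeR adjusted p = 0.000157) and by 0.42 ± 0.12 in wild type (edgeR adjusted p = 0.0324), where leaving out any of 5 libraries ended the call. It also ended without a filter, with only the 2 groups in the fit and with the score (0.38, 0.38 and 0.39, edgeR adjusted p = 0.0506, 0.0887 and 0.148). Neuron markers summed to between 2258 and 2394 CPM in mutant TCDD and between 2632 and 2724 CPM in mutant DMSO libraries, with 2 of 5 called higher and 3 lower, and to between 2446 and 2673 CPM in wild-type TCDD and between 2414 and 2861 CPM in wild-type DMSO libraries, with 1 of 5 called lower. The part of neurons in the ncam3 levels was not tested.

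**Figure D3:**
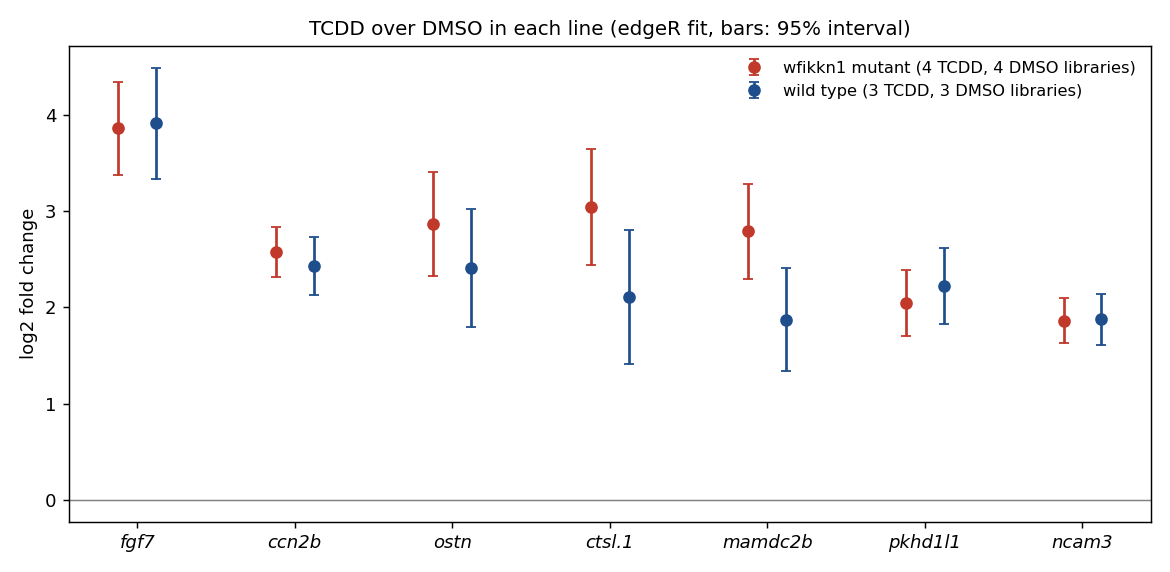
Log2 fold change of TCDD over DMSO for each of the 7 genes, in mutants (left point of each pair, 4 libraries per exposure) and wild type (right point, 3 libraries per exposure), with 95% intervals of the edgeR fit as bars. The values run from 1.86 to 3.86 in mutants and from 1.87 to 3.91 in wild type, and they chose the genes. The bars do not allow for this choice.

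Over the 7 genes the median log2 fold change with TCDD was 2.79 in mutants and 2.22 in wild type, and all 7 had no overlap between TCDD and DMSO libraries in either line. Groups without overlap in the higher direction were seen for 19.5% of all tested genes in mutants and 16.2% in wild type. The choice of the genes fixed this count, so nothing is read from it. Ranked by size of the rise among all tested genes, the 7 stood at places 8 to 62 in mutants and 15 to 288 in wild type.

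The difference of the TCDD effects between the lines is also a description, since a large rise in both lines was asked for. On the log2 scale, mutants minus wild type, it was 0.93 for ctsl.1 (95% interval 0.0062 to 1.86) and 0.92 for mamdc2b (95% interval 0.20 to 1.63). It was 0.45 for ostn (95% interval -0.38 to 1.29) and 0.14 for ccn2b (95% interval -0.24 to 0.53). It was -0.054 for fgf7 (95% interval -0.81 to 0.70), -0.18 for pkhd1l1 (95% interval -0.68 to 0.33) and -0.014 for ncam3 (95% interval -0.37 to 0.34). On the fold scale the interval ran from 0.570 to 1.63 for fgf7, from 0.770 to 2.44 for ostn and from 1.00 to 3.64 for ctsl.1, genes with few vehicle reads, and from 0.776 to 1.26 for ncam3. The intervals are per gene and not adjusted for the number of genes, and nothing is read from those that leave out 0. After adjustment edgeR called none of the 7 for this difference, and 12% of all tested genes. Since a large rise in both lines was asked for, nothing is read from this count beside that share. For cyp1a, which was not chosen by this rule, the difference was 0.89 ± 0.14 (edgeR adjusted p = 0.000372), and with the library score as a term it was 0.64, which was not called (edgeR adjusted p = 0.522).

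The comparison of mutant with wild type in vehicle asks whether these genes differ between the lines without TCDD. It shares its libraries with the comparisons of TCDD and DMSO above. Mamdc2b and ncam3 were lower in mutants, and the other 5 were not called. Mamdc2b averaged 2.30 ± 0.921 CPM in mutant DMSO libraries (SD, n = 4) and 4.80 ± 1.33 CPM in wild-type DMSO libraries (SD, n = 3), a log2 fold change of -1.08 ± 0.26 (0.475-fold, edgeR adjusted p = 0.00870). Ncam3 averaged 6.18 ± 0.451 CPM in mutant DMSO libraries (SD, n = 4) and 8.46 ± 0.848 CPM in wild-type DMSO libraries (SD, n = 3), a log2 fold change of -0.45 ± 0.12 (0.731-fold, edgeR adjusted p = 0.0166). Called in this comparison were 16.8% of all tested genes (8.21% higher and 8.60% lower), which is the background for the 2 of 7. The low mutant DMSO levels of mamdc2b also enter its chosen rise in mutants. Groups without overlap in the lower direction, as both genes had them, were seen for 12.3% of all tested genes.

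In DMSO, 1 of 5 neuron markers was called lower and none higher by edgeR or DESeq2 (3 lower and none higher at an unadjusted edgeR p under 0.05), with sums between 2632 and 2724 CPM in mutants and between 2414 and 2861 CPM in wild type. Of 6 fin fold markers 3 were called higher and 1 lower, and of 4 cartilage markers 1 higher and 2 lower, and the part of these tissues in both calls was not tested. Neither vehicle call held in every fit. With only the 2 groups compared in the fit, mamdc2b kept its fold change of -1.07 with an edgeR adjusted p of 0.0519, and ncam3 kept -0.46 with 0.0705. The ncam3 call also ended without wild-type DMSO replicate 1 (-0.40, edgeR adjusted p = 0.0689), wild-type DMSO replicate 3 (-0.40, edgeR adjusted p = 0.0630) or mutant DMSO replicate 1 (-0.41, edgeR adjusted p = 0.0507). The authors' deposited table of mutant over wild type in DMSO lists both genes among 3220. Their log2 ratios are -1.07 for mamdc2b and -0.45 for ncam3, with the authors' adjusted p of 0.00921 and 0.0171. The table comes from the same study and is no independent check.

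For the other 5 genes the intervals in vehicle all held 0. The log2 fold change of mutant over wild type was 0.28 for fgf7 (95% interval -0.42 to 0.98, edgeR adjusted p = 0.653), -0.23 for ostn (95% interval -0.90 to 0.44, edgeR adjusted p = 0.671) and -0.27 for ctsl.1 (95% interval -1.01 to 0.47, edgeR adjusted p = 0.650). It was -0.035 for ccn2b (95% interval -0.33 to 0.26, edgeR adjusted p = 0.894) and -0.17 for pkhd1l1 (95% interval -0.53 to 0.20, edgeR adjusted p = 0.560). As fold changes the intervals ran from 0.795 to 1.2 for ccn2b, from 0.748 to 1.97 for fgf7 and from 0.498 to 1.39 for ctsl.1. The sign of ctsl.1 in vehicle turned without wild-type DMSO replicate 4 (0.19) and with the library score as a term (0.22).

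In embryos exposed to TCDD, ncam3 was again lower in mutants and the other 6 genes were not called. Ncam3 averaged 22.5 ± 1.1 CPM in mutant TCDD libraries (SD, n = 4) and 31.0 ± 4.02 CPM in wild-type TCDD libraries (SD, n = 3), a log2 fold change of -0.47 ± 0.11 (0.724-fold, 95% interval -0.70 to -0.23 on the log2 scale, edgeR adjusted p = 0.00443). Called in this comparison were 27.6% of all tested genes, 16.9% lower and 10.7% higher, so that 1 call in 7 is no more than the background. Lower groups without overlap, as ncam3 had them, were seen for 20.8% of all tested genes. None of the 5 neuron markers was called in this comparison by edgeR or DESeq2, and none had an unadjusted edgeR p under 0.05. Of the 21 other tested genes for neural cell adhesion molecules and their polysialyltransferases, edgeR called 11 lower and none higher (DESeq2 3 higher, and 3 higher at an unadjusted edgeR p under 0.05), with a median log2 fold change of -0.34 against 0.0018 over all genes. With the library score as a term ncam3 had -0.36 and was not called (edgeR adjusted p = 0.224). The authors' deposited table of mutant over wild type under TCDD lists ncam3 with a log2 ratio of -0.47 and an adjusted p of 0.00405. It holds 5455 genes of the same study and is no independent check.

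Ctsl.1 averaged 6.31 ± 1.11 CPM in mutant TCDD libraries (SD, n = 4) and 3.98 ± 0.390 CPM in wild-type TCDD libraries (SD, n = 3), with no overlap between them, as was seen in the higher direction for 16.4% of all tested genes. Its log2 fold change of 0.67 ± 0.27 was not called (edgeR adjusted p = 0.0727). It was called with DESeq2 (0.70, adjusted p = 0.0258), with only the 2 groups in the fit (0.66, edgeR adjusted p = 0.0125), without wild-type DMSO replicate 4 (0.67, edgeR adjusted p = 0.0361) and without mutant DMSO replicate 1 (0.72, edgeR adjusted p = 0.0235). Both DMSO libraries left out are in neither group compared and act only through the shared filter, scaling and spread of the fit. With the library score as a term the sign of ctsl.1 turned (-0.083, edgeR adjusted p = 0.933).

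Pkhd1l1 had a log2 fold change of -0.34 ± 0.16 under TCDD (95% interval -0.69 to 0.0014, edgeR adjusted p = 0.131). It was called without wild-type TCDD replicate 3 (-0.50, edgeR adjusted p = 0.0446) or without mutant TCDD replicate 1 (-0.48, edgeR adjusted p = 0.0398). Mamdc2b, lower in mutants in vehicle, had -0.16 under TCDD (95% interval -0.62 to 0.31, edgeR adjusted p = 0.638). The signal genes fgf7, ccn2b and ostn had 0.22 (95% interval -0.18 to 0.63), 0.11 (95% interval -0.14 to 0.36) and 0.23 (95% interval -0.26 to 0.71), with edgeR adjusted p of 0.415, 0.542 and 0.513.

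**Figure D4:**
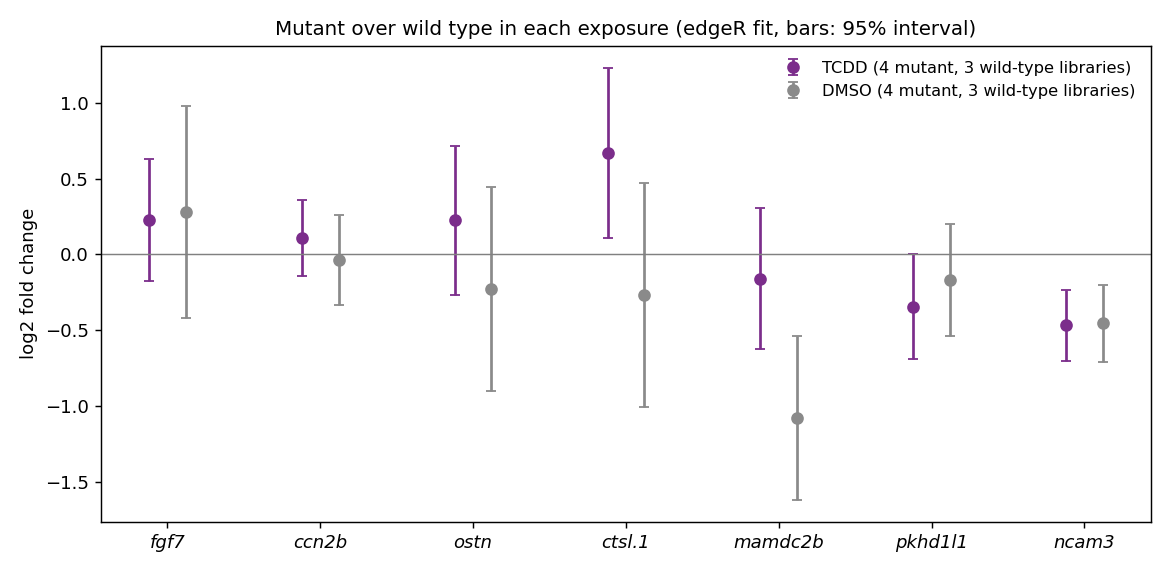
Log2 fold change of mutant over wild type for each of the 7 genes among embryos exposed to TCDD (left point of each pair) and to DMSO (right point), 4 mutant and 3 wild-type libraries each, with 95% intervals of the edgeR fit as bars. Ncam3 lies below 0 in both exposures, at -0.47 and -0.45, and mamdc2b lies at -0.16 with TCDD and -1.08 with DMSO.

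Ordered by mean level, both DMSO groups were the lowest and both TCDD groups the highest for each of the 7 genes. The choice of large rises in both lines favoured this order, so nothing is read from it. Neighbouring groups of the same exposure overlapped for fgf7, ccn2b, ostn and pkhd1l1. They did not overlap for ncam3 in either exposure, for mamdc2b in DMSO and for ctsl.1 in TCDD. Of all tested genes, 12.3% had mutants below wild type without overlap in DMSO. Under TCDD 20.8% had mutants below and 16.4% had mutants above wild type without overlap.

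The genes with the most similar pattern were named by Pearson's r of log2 CPM over the 14 libraries, among the 12942 named genes whose log2 CPM averaged 1 or more. All 7 genes differ between the TCDD and DMSO libraries, so r describes a shared exposure and carries no test. For fgf7 they were cyp1c2 (0.994), cyp1a (0.993) and the AHR repressor gene ahrra (0.988). For ccn2b they were cyp1a (0.994), cyp1c2 (0.991) and cyp1c1 (0.991), and for ostn cyp1a (0.977), cyp1c1 (0.975) and ahrra (0.969). Pkhd1l1 was closest to cyp1c1 (0.977), ccn2b (0.975) and ncam3 (0.967), and ncam3 to cyp1c1 (0.978), pkhd1l1 (0.967) and ahrra (0.966). Ctsl.1 was closest to the neurofilament gene nefma (0.967), the sulfotransferase gene sult6b1 (0.962) and the glucuronosyltransferase gene ugt1b5 (0.958), and mamdc2b was closest to the collagenase gene mmp13a, to sqor and to golga1 (0.955 each). Of 10 tested AHR target genes, 9 were called higher in mutants and 8 in wild type.

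Within groups the deviations of the 7 genes had no common direction. Over the 14 libraries the 21 pairs had an r between 0.835 and 0.986, in which the shared exposure enters. After subtraction of group means r ran from -0.61 for ctsl.1 with mamdc2b to 0.578 for ostn with ctsl.1, and it was positive in 12 of the 21 pairs. With the deviations of cyp1a, r was 0.698 for ctsl.1, 0.577 for fgf7, 0.189 for ostn, -0.0774 for ncam3, -0.216 for pkhd1l1, -0.267 for ccn2b and -0.649 for mamdc2b.

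The spread between libraries of a group differed among the genes. The standard deviation of log2 CPM within groups was 0.127 for ncam3 and 0.132 for ccn2b, against a median of 0.225 over all tested genes. It was 0.257 for pkhd1l1, 0.261 for fgf7, 0.330 for ostn, 0.395 for mamdc2b and 0.486 for ctsl.1. Among the 5 genes abundant enough to be placed on the axis of variation within groups, ctsl.1 had a weight at percentile 0.31 of the 15143 genes, near the lowest end. Weights carry a sign, so the lowest end holds genes that moved most strongly against the score, not genes of little weight. Ncam3, ccn2b, mamdc2b and pkhd1l1 stood at percentiles 69.6, 74.1, 78.3 and 85.7. Fgf7 and ostn were too low to be placed.

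**Figure D5:**
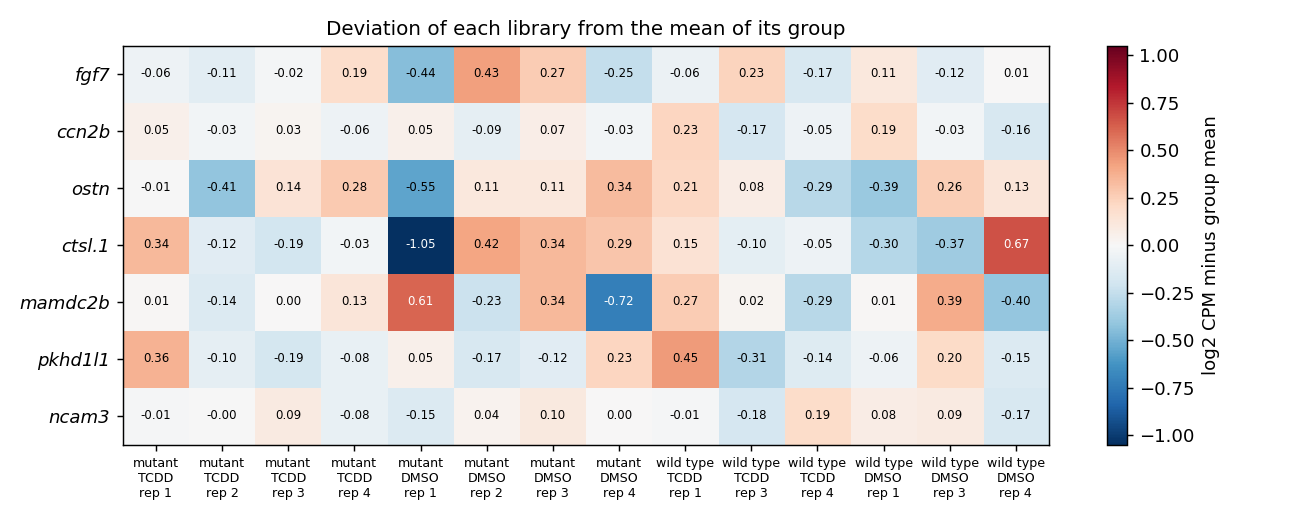
Deviation of log2 CPM from the mean of its own group for each of the 7 genes (rows) in each library (columns), where red is above and blue below the group mean. Ctsl.1 in mutant DMSO replicate 1 lies farthest from its group mean, and the rows do not share a common pattern.

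The neighbours of these genes along the chromosomes were read from RefSeq's gene order in assembly GRCz12tu, which placed 6 of the 7 by symbol. Of the 24 genes that lie up to 2 places away, 11 were tested here. With TCDD, 5 of the 11 were called higher and 1 lower in mutants, and 2 higher in wild type, beside 17.5% and 18.6% of all tested genes in mutants and 8.84% in wild type. The neighbour called in both lines was cd22, next to ncam3, which rose by 1.3 in mutants (edgeR adjusted p = 0.000155) and by 1.62 in wild type (edgeR adjusted p = 0.000775).

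The authors' deposited table of TCDD over DMSO in mutants holds 7244 genes, all 7 among them. Their log2 ratios ran from 1.85 for ncam3 to 3.85 for fgf7. The authors' deposited table for wild type holds 2871 genes and lists all 7 as well, with log2 ratios from 1.87 for mamdc2b to 3.91 for fgf7. The 7 genes were chosen for these rises in the same study, so nothing is read from the listing.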

How the data were processed

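Read counts per gene were deposited by the authors as raw counts. Per the submitters' processing notes, reads were trimmed with cutadapt 1.8.1, and HISAT2 2.2.0, SAMtools 1.10, HTSeq 0.12.4, edgeR (no version) and assembly GRCz11 were used; the annotation release and the strand setting of counting are not given in the sources used here. Per the labels' protocols, libraries were stranded and poly(A)-selected, from RNA of integrity number over 8, and gave 100 bp single-end reads. For 4 comparisons the authors deposited tables with log2 ratios, log2 mean CPM, p-values with adjusted p-values, and F, a score of their test, listing genes past their threshold only.

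Counts of the 14 libraries entered 1 fit with edgeR 4.0.16 (R 4.3.3) (filterByExpr, TMM, quasi-likelihood F tests, 1 mean per group, p adjusted by Benjamini and Hochberg over 20098 genes, called under 0.05; biological coefficient of variation 0.151). Dividing a log2 fold change by the square root of its F gave the SE. Levels are CPM, and log2 CPM used a prior count of 2. Each library is a pool from its own dish, so the spread is between dishes. The fit was tested on simulated data. Their counts were drawn independently for each gene and library, without the shared axis, so they cannot show how that axis affects the calls. Alternatives were RLE scaling, 2 other filters, DESeq2 1.42.0, only the 2 groups compared, a replicate block, sample number, the library score and each library left out. Sample number entered as a term of 2 levels, up to 8 and 9 to 16. For cyp1a, cd22, paralogs and genes of the lists these alternatives were added after seeing the data. The members, the 11 gene lists and the 10 marker lists were chosen with earlier results of these data known. Named were all members, paralogs, cyp1a, wfikkn1 and in each list the called genes of smallest adjusted p, at most 2 per line. Ncam1a, ncam2, ccn2a, ctsla and mamdc2a are the paralogs; cd22 was named after its value was seen. Gene names came from the authors' tables (10902 identifiers) or a gene name table (18822), and 2796 had none. Listed genes without a value were not analysed here.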

Additional observations from a re-analysis of the deposited data

Results flagged for a closer look

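In mutant DMSO libraries, ctsl.1 in replicate 1 stood apart from the other 3, at 0.290 CPM against 0.865 to 0.953 CPM. Its gap to the nearest library was 0.868 of the range of the group, above Dixon's 95% critical value for 4 samples. In all, 20 groups of 4 libraries were tested in this way, and chance flags about 1 in 20. The library rests on 6 counts of this gene, and without it the log2 fold change of ctsl.1 between mutant and wild type under TCDD was 0.72 and was called (edgeR adjusted p = 0.0235). This DMSO library is in neither group of that comparison. It acts there only through the shared filter, scaling and spread of the fit.

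The test of the difference between the TCDD effects of the lines was read for 36 genes outside the 7 (cyp1a, wfikkn1, the paralogs and the named genes of the lists). Most of them were named for a small adjusted p within a line. It called 18 of the 36, beside 12% of all 20098 tested genes (edgeR). The naming used the same libraries and favours genes that differ between the lines, so nothing is read from 18 of 36 beside that share. The difference is given here as mutants minus wild type on the log2 scale. It was positive for cyp1a (0.89), ctsk (0.54) and cyp1c1 (0.54). It was negative for fgf6b (-2.19), frs3 (-3.00), spred2b (-2.57), vgll4a (-0.74), npr1a (-1.05) and prkg1a (-1.17), genes of signalling. Among adhesion, neuropilin and polycystin genes it was negative for chl1b (-0.51), l1camb (-1.52), chl1a (-0.85), ncam1a (-0.82), nrp1a (-0.41), nrp1b (-1.39), pkd1b (-0.99), pkd2 (-2.09) and pkd1l2a (-0.94). Adjusted p in edgeR ran from 0.000199 to 0.0396. With the library score as a term none of the 18 was called (edgeR), and their direction was kept in all but prkg1a, which had 0.037. Leaving out single libraries ended the calls of ctsk (9 of 14 libraries), cyp1c1 (8), vgll4a (6), nrp1a (3), chl1b (2) and fgf6b (1). A replicate block ended those of ctsk and cyp1c1 (edgeR adjusted p = 0.0591 and 0.0592). The fit without a filter ended that of nrp1a (edgeR adjusted p = 0.0675).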

How the results depend on the processing

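The number of genes called with TCDD in wild type was 2933, and it was 1170 with only the 2 groups in the fit, 1147 with the library score as a term and 1856 to 3017 when 1 library was left out (1856 without wild-type TCDD replicate 3). In mutants it was 7253, and 2223 with the score and 5832 to 7708 with 1 library left out. For mutant against wild type it was 3378 in DMSO, 2172 with only the 2 groups, 1796 with the score and 2064 to 3504 with 1 library left out (2064 without wild-type DMSO replicate 4). Under TCDD it was 5552, and 1358 with the score and 4039 to 6130 with 1 library left out. Of calls with TCDD in wild type 60.6% were higher, against 49.7% with DESeq2 and 51.1% with RLE scaling. None of the settings that kept all libraries moved the median of all genes by more than 0.0485. That shift was not computed for the fits with 1 library left out.

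Of the 7 genes, 2 were called between the lines in DMSO, 0 with only the 2 groups and 1 to 2 with 1 library left out. Under TCDD 1 was called, 2 with DESeq2, 2 with only the 2 groups, 0 with the score and 1 to 2 with 1 library left out. The sign turned in DMSO for ccn2b without wild-type DMSO replicate 1 (0.088) or mutant DMSO replicate 2 (0.00030), and for ctsl.1 with the score (0.22) and without wild-type DMSO replicate 4 (0.19). Over the libraries left out, ccn2b in DMSO ran from -0.12 to 0.088 and ctsl.1 from -0.44 to 0.19. Under TCDD the sign turned with the score for fgf7 (-0.12), ctsl.1 (-0.083) and mamdc2b (0.14), none of them called. With TCDD in mutants the score gave 3.56 for fgf7, 2.71 for ccn2b and 2.32 for pkhd1l1. Of 71 calls of cyp1a, cd22, paralogs and listed genes 25 kept their call with the score, and the difference of prkg1a turned (0.037). The cause of these changes was not tested.

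Deviations of same-numbered replicates had correlations of -0.357 to 0.206. These were not compared with differently numbered replicates, so whether the numbers mark a shared batch was not tested. With the replicate block 2492 genes were called with TCDD in wild type, 6855 in mutants, 2751 between the lines in DMSO and 4744 under TCDD, and the 2 calls and 1 call among the 7 genes stayed.

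Vehicle levels of fgf7, ostn and ctsl.1 rest on 5 to 32 reads per library, so depth limits their precision.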
